A study of Mus musculus with 4 samples.

Results

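Natural killer T (NKT) cells are T cells that recognise lipids, and they branch off in the thymus from double positive thymocytes, the cells that carry both CD4 and CD8. The probe sets of 7 genes that act at this branch point were taken from the deposited array table by gene symbol: Cd1d1, the receptor genes Slamf1, Slamf6, Ly9 and Cd84, the adaptor gene Sh2d1a and the transcription factor gene Zbtb16. Every probe set annotated to only 1 gene symbol, with that symbol among the 7, was used, which gave 15 of the 34945 probe sets with 1 symbol. No probe set was shared between 1 of the 7 genes and another gene in the platform annotation. The rule matches symbols alone, but the 7 genes were picked with earlier results of these data known.

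Selection of NKT cells depends on contacts between double positive thymocytes themselves. One cell presents lipid on CD1d, and both cells engage receptors of the SLAM (signalling lymphocytic activation molecule) family, most of which bind their own kind. The cytoplasmic tails of these receptors recruit SAP, the small adaptor encoded by Sh2d1a, which brings in the kinase Fyn. PLZF, the zinc finger protein encoded by Zbtb16, is then switched on and directs the effector programme of NKT cells.

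RNA came from double positive thymocytes of 4 mice, with 1 Affymetrix array per mouse. The Ikf/f CD4-Cre+ mice (Cre-positive, n = 2) carry floxed alleles of Ikzf1, which encodes the lymphoid zinc finger protein Ikaros, together with a Cre transgene expressed from Cd4 regulatory sequences. The Ikf/f CD4-Cre- mice (Cre-negative, n = 2) carry the same floxed alleles without Cre. All 4 mice were thus Ikf/f, and an effect of Cre cannot be told apart from one of Ikaros loss. For age, background strain and cell purification the sources used here give nothing. By the signal of Xist, the transcript of the inactive X, Cre-negative sample 2 was female and the other mice male. Sex was thus not balanced between the groups for any gene, and its part in the differences was not tested. Values are log2 signals from RMA, which corrects background, equalises the distributions of the arrays and turns the probes of each set into 1 value. The number of arrays limits the precision.

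Each difference is the Cre-positive mean minus the Cre-negative mean in log2 units, with its standard error (SE) and 95% interval from limma. A gene is represented by its brightest probe set, and 11639 genes at or above a mean signal of 4.76 (the 40th percentile of named probe sets) were tested together, with Benjamini-Hochberg adjustment and a threshold of 0.05. Values for further probe sets come from a second limma fit over all 34945 named probe sets without a filter. For a single gene, exact permutation of 2 against 2 arrays gives no p below 0.333. Each limma p rests on the gene's own spread together with the spread shared across genes. All 7 genes passed the filter, as did 13 of their 15 probe sets.

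Ikzf1 itself read 10.80 and 10.62 in the Cre-positive samples, against 12.40 and 12.08 in the Cre-negative samples, and fell by 1.53 (limma adjusted p = 0.024). Its second, dimmer probe set read 5.35 and 5.74 in the Cre-positive samples and 5.73 and 5.81 in the Cre-negative samples. Markers of double positive cells were high on all arrays: Rag1 read 13.25 and 13.41 in the Cre-positive samples and 13.46 and 13.42 in the Cre-negative samples. None of 9 such markers passed in limma, but 6 were lower in the Cre-positive samples without overlap (18.7% of all genes were), among them Cd8a (-0.30), Cd8b1 (-0.29) and Rag2 (-0.41), which is also the direction of the 7 genes. The other way, 2 markers were higher without overlap, Ptcra (1.16, limma adjusted p = 0.0540) and Cd3e (0.41). The part of these shifts in the results was not tested. Transcripts used as markers of other cells were also detected, and some of them moved with genotype. The summed linear signal of 14 macrophage and granulocyte markers was 637 and 1091 in the Cre-positive samples and 401 and 420 in the Cre-negative samples, and that of 10 dendritic cell markers was 1180 and 1228 against 566 and 428. Cre-positive sample 2 stood apart for the neutrophil genes S100a8 (8.38, against 4.02 to 4.52 in the other 3 samples) and S100a9 (7.14, against 3.74 to 3.93). Without this pair, a choice made after its values were seen, the sums were 601 and 616 in the Cre-positive samples and 363 and 391 in the Cre-negative samples. Of the kept markers 1 of 10 rose in the first list (Lyz2) and 2 of 9 in the second (Irf8 and H2-Ab1), where 1.11% of all genes did. At an unadjusted p under 0.05, 4 of 10 and 5 of 9 were higher, where 14.3% of all genes were, and 0 were lower. Besides those called, these were Tyrobp (0.82), C1qa (1.11), C1qc (0.95), H2-Aa (2.25), H2-Eb1 (1.68) and Cd74 (0.89), with limma adjusted p from 0.0502 to 0.0795. None fell in limma, and Adgre1 (-0.03), Fcer1g (0.06), Elane (0.02), Flt3 (-0.16), Zbtb46 (-0.14) and Siglech (0.01) had small differences of either sign. Irf8 and H2-Ab1 no longer passed when any 1 array was left out or with arrays centred on the median of the tested genes (limma adjusted p = 0.0676 and 0.0537), and Lyz2 did not pass without either Cre-negative array. Itgam, Cd68, Mpo, S100a9 and Xcr1 lay below the signal filter. For 6 B cell markers the sums were 422 and 525 in the Cre-positive samples and 443 and 489 in the Cre-negative samples, with Cd79a, Blk and Cr2 below the filter. None of the 3 kept passed in limma, and 1 was higher at an unadjusted p under 0.05, where 14.3% of all genes were. That was Ms4a1 (0.71, limma adjusted p = 0.105), while Pax5 differed by 0.18 and Cd79b, the brightest, by -0.08. The arrays do not show which cells these transcripts came from. SLAM receptors and CD1d are also found on cells of these types, and the part of any such cells in the results was not tested. In bulk RNA fewer cells of a type and less RNA per cell cannot be told apart.

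**Figure D1:**
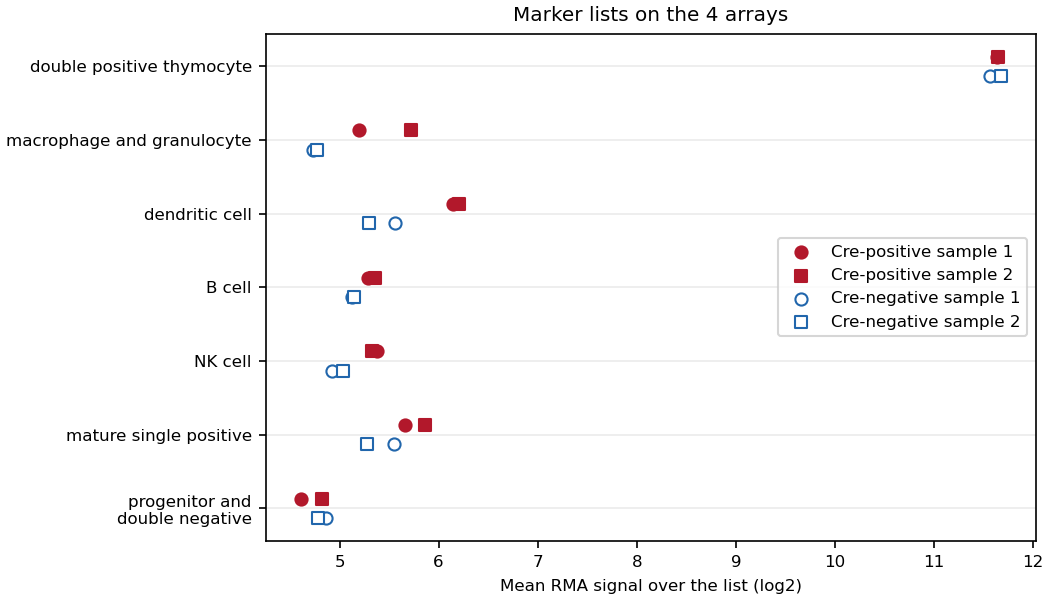
Mean RMA signal (log2, horizontal axis) over each marker list, with a point for each of the 4 arrays (red filled, Cre-positive; blue open, Cre-negative). Double positive markers lie near 11.6 on every array, while both Cre-positive points of the macrophage and dendritic lists lie to the right of both Cre-negative points.

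The 7 genes all had lower mean signals in the Cre-positive mice, where 39% of all genes did, but the differences were modest and none passed the threshold. The largest at the level of brightest probe sets was that of Cd1d1, at -0.66, and the smallest was that of Zbtb16, at -0.13. In limma 0 of 7 genes passed after adjustment, where 1.37% of all genes did (0.266% lower), and 3 of 7 had an unadjusted p under 0.05 with a lower mean, where 6.29% of all genes did. Both Cre-positive arrays lay below both Cre-negative arrays for 5 of 7 genes, against 18.7% of all genes. The median difference of the 7 genes was -0.36, while that of all 11639 genes was 0.06. Of the 15 probe sets, 14 had a negative difference, where 44.9% of named probe sets did, and 11 were lower without overlap, where 19.4% did. These counts and shares include probe sets below the signal filter. Among the 14 are the Zbtb16 sets 1439163_at and 1419874_x_at, which lay below it, and the first of these is also among the 11. None of the 15 passed (0.687% of all named probe sets did), 7 had an unadjusted p under 0.05 with a lower mean (6.59% of all), and their smallest adjusted p was 0.0591. The 4 receptor genes lie in 1 gene cluster, and probe sets of 1 gene read the same transcripts, so these counts are not over independent features.

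**Figure D2:**
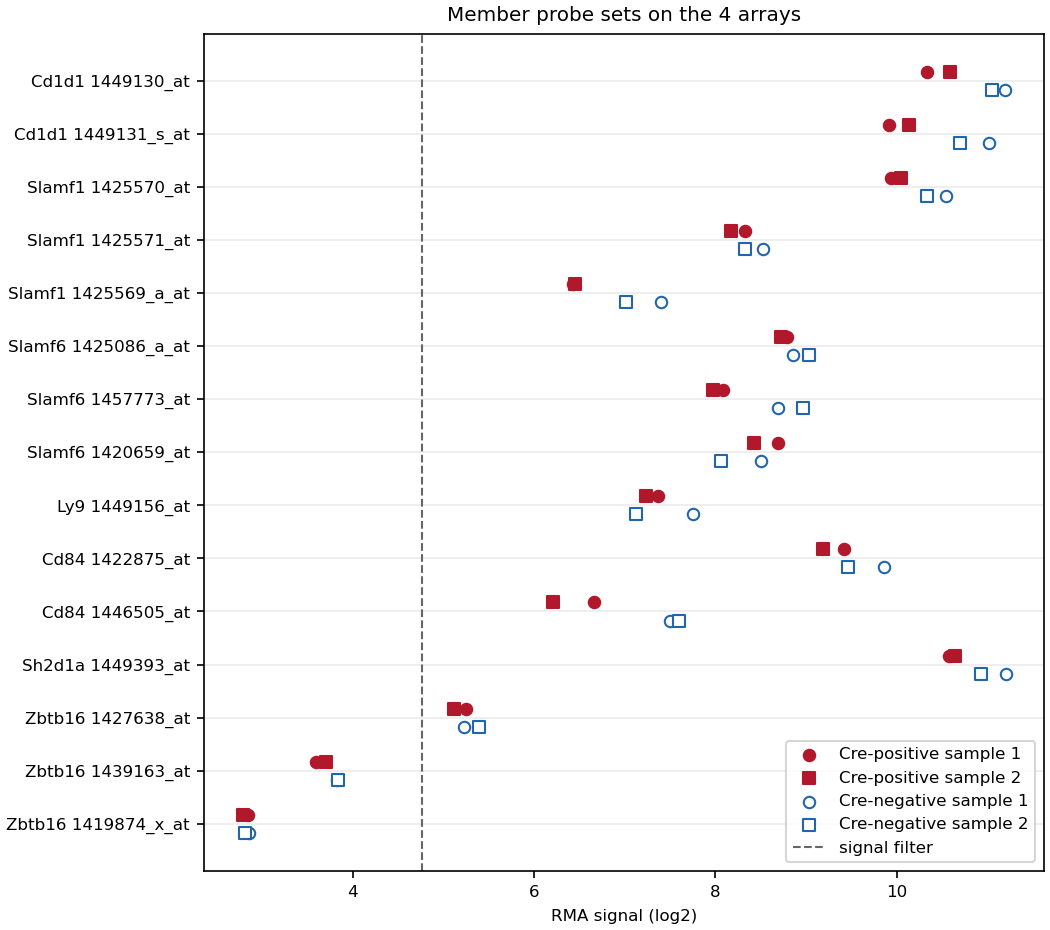
RMA signal (log2, horizontal axis) of the 15 probe sets on each array, Cre-positive in red filled and Cre-negative in blue open symbols; the dashed line is the signal filter at 4.76. For 11 probe sets both red points lie to the left of both blue points, and 2 of the 3 Zbtb16 probe sets lie below the filter.

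Cd1d1 encodes the molecule that presents lipid antigens to NKT cells, and its display on double positive thymocytes selects their precursors. Its brighter probe set (1449130_at) read 10.34 and 10.59 in the Cre-positive samples, against 11.20 and 11.06 in the Cre-negative samples. The groups did not overlap, and Cre-positive sample 1 was the lowest of the 4. The difference was -0.66 ± 0.14 (SE, n = 2 per group), a signal 0.632 times that of the Cre-negative mice, with an interval of -1.01 to -0.31. It missed the threshold (limma adjusted p = 0.0863). The second probe set (1449131_s_at) read 9.91 and 10.14 in the Cre-positive samples and 11.02 and 10.70 in the Cre-negative samples, and again the groups were separate. Its difference was -0.83 ± 0.16 (limma adjusted p = 0.0822 over probe sets). The suffix _s_at marks a set whose probes can match several transcripts, and Cd1d2 is a near-identical neighbour, so this set may read both. The probe set of Cd1d2 overlapped between groups, at 7.75 and 8.18 in the Cre-positive samples and 8.66 and 8.06 in the Cre-negative samples (difference -0.40 ± 0.25, limma adjusted p = 0.424).

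Slamf1 encodes SLAM, the founding receptor of the family. The brightest of its 3 probe sets (1425570_at) read 9.94 and 10.05 in the Cre-positive samples, against 10.55 and 10.33 in the Cre-negative samples. Both Cre-positive mice were lower. The difference was -0.45 ± 0.13 (SE, n = 2 per group), with an interval of -0.78 to -0.12, and did not pass (limma adjusted p = 0.151). The dimmest set (1425569_a_at) read 6.43 and 6.45 in the Cre-positive samples and 7.40 and 7.01 in the Cre-negative samples, a difference of -0.76 ± 0.16 (limma adjusted p = 0.0924 over probe sets). The middle set (1425571_at) differed by only -0.18, with an interval of -0.50 to 0.14, and its groups were separated by a narrow gap, at 8.331 and 8.169 in the Cre-positive samples and 8.525 and 8.333 in the Cre-negative samples.

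Slamf6 encodes a receptor that acts together with SLAM in NKT selection in mice, and its 3 probe sets did not move alike. The brightest (1425086_a_at) read 8.79 and 8.72 in the Cre-positive samples and 8.86 and 9.03 in the Cre-negative samples, a difference of -0.19 ± 0.12 (limma adjusted p = 0.451). The second (1457773_at) read 8.08 and 7.97 in the Cre-positive samples, against 8.70 and 8.96 in the Cre-negative samples. Here the groups were clearly apart, with a difference of -0.80 ± 0.14 and an interval of -1.14 to -0.47 (limma adjusted p = 0.0677 over probe sets). The third (1420659_at) was the only 1 of the 15 with a positive difference, 0.28 ± 0.19, and its groups overlapped at 8.70 and 8.43 in the Cre-positive samples and 8.51 and 8.06 in the Cre-negative samples. Within each array, the second set minus the brightest gave -0.71 and -0.75 in the Cre-positive samples and -0.16 and -0.07 in the Cre-negative samples, so the sets of this gene changed unequally. The sources used here do not place the probes in the transcripts.

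Ly9 encodes a family member that in mice restrains NKT cells, and it had 1 probe set. It read 7.37 and 7.24 in the Cre-positive samples, between the values of the Cre-negative samples, 7.76 and 7.13. The groups overlapped, and the difference of -0.14 ± 0.22 (SE, n = 2 per group) had an interval of -0.69 to 0.41 (limma adjusted p = 0.774), which leaves room for a difference of either sign. Without Cre-negative sample 1 the difference was 0.18.

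Cd84 encodes a self-binding receptor of the same family. Its brighter probe set (1422875_at) read 9.42 and 9.19 in the Cre-positive samples and 9.86 and 9.46 in the Cre-negative samples. The groups touched closely without overlap, and the difference was -0.36 ± 0.18 (limma adjusted p = 0.329). The dimmer set (1446505_at) read 6.66 and 6.21 in the Cre-positive samples, against 7.50 and 7.60 in the Cre-negative samples. That difference, -1.11 ± 0.17 (SE, n = 2 per group), was the largest of the 15, a signal 0.463 times that of the Cre-negative mice, with an interval of -1.54 to -0.69. It stood just outside the threshold (limma adjusted p = 0.0591 over probe sets). With a robust variance prior it passed (limma adjusted p = 0.0453). With weighted arrays (limma adjusted p = 0.0624) or arrays centred on their own median (0.0552) it did not. Further settings under which it passed are given in the last section. With 1 array left out the difference ran from -1.34 to -0.89. The dimmer minus the brighter set gave -2.75 and -2.97 in the Cre-positive samples and -2.36 and -1.86 in the Cre-negative samples.

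**Figure D3:**
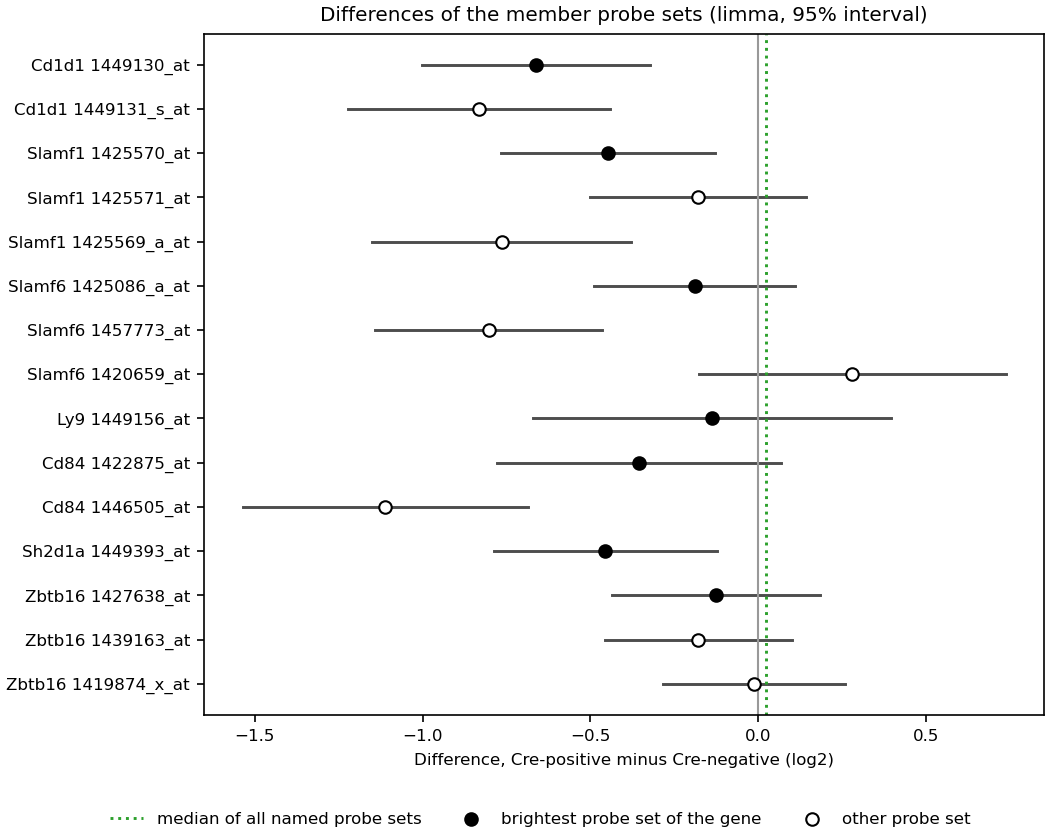
Difference in log2 signal, Cre-positive minus Cre-negative (horizontal axis), for the 15 probe sets, with 95% intervals from the limma fit over 34945 probe sets (filled, the brightest set of its gene; open, other sets). The points run from -1.11 for a Cd84 set to 0.28 for a Slamf6 set, and the dotted line marks the median of all named probe sets at 0.02.

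The receptor genes are neighbours on mouse chromosome 1, which makes their start regions of interest beside the lower signals. RefSeq promoter windows (GRCm38.p6, plus strand, from 250 bases before to 50 bases after the start) were at hand for 3 of the 7 genes, Slamf1, Slamf6 and Cd84. They were searched on both strands for GGGAA, the core that Ikaros zinc fingers recognise, and for the longer TGGGAA, which contains it. The windows are chr1:171766882-171767181 for Slamf1, chr1:171917212-171917511 for Slamf6 and chr1:171839447-171839746 for Cd84, and capitals mark GGGAA or its reverse complement TTCCC.
Slamf1: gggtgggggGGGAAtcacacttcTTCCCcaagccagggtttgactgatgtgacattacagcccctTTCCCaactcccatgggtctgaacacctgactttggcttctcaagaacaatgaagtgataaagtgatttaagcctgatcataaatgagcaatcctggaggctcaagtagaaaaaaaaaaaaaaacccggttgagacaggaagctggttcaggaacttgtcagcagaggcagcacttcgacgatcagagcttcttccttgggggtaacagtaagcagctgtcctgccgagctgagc
Slamf6: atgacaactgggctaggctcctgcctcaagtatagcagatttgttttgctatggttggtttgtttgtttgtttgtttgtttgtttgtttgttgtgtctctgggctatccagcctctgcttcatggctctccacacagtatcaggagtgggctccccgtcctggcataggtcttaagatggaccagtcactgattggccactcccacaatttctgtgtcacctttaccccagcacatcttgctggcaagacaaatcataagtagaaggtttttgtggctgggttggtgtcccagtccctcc
Cd84: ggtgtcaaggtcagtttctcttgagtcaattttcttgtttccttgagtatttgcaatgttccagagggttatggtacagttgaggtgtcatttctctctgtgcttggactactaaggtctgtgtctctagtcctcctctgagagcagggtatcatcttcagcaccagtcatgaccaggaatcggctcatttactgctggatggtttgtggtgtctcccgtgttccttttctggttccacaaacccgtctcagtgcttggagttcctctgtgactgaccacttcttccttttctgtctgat
The Slamf1 window held 3 matches, 1 of GGGAA and 2 of TTCCC, of which the last is part of TTCCCA, the reverse complement of TGGGAA. The windows of Slamf6 and Cd84 held 0 matches. Of 32851 RefSeq windows of this length, 62.7% held GGGAA and 25.6% held TGGGAA on either strand, so a match in 1 of 3 windows describes only the letters there.

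In RefSeq order the cluster runs from Cd244a over Ly9, Slamf7, Cd48, Slamf1 and Cd84 to Slamf6. The set of neighbours below was added after the values were seen. Cd48, whose product is the ligand of the receptor encoded by Cd244a, read 9.001 and 8.848 in the Cre-positive samples and 8.944 and 9.263 in the Cre-negative samples, a difference of -0.18 ± 0.15 (limma adjusted p = 0.566). Cd244a and Slamf7, receptors of natural killer and other cytotoxic cells, lay below the filter on all 4 arrays, at 3.68 to 4.00 and 4.02 to 4.40. The adjoining Vangl2, a planar polarity gene, differed by 0.26, and Ncstn, which encodes a gamma-secretase subunit, by -0.71 (limma adjusted p = 0.314 and 0.105). Outside the cluster Slamf9 overlapped between groups, at 5.48 and 5.41 in the Cre-positive samples and 5.21 and 5.49 in the Cre-negative samples, and Slamf8 was below the filter. Of the other family genes kept, 0 of 2 passed in limma and 0 had an unadjusted p under 0.05, where 20.6% of all genes did.

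**Figure D4:**
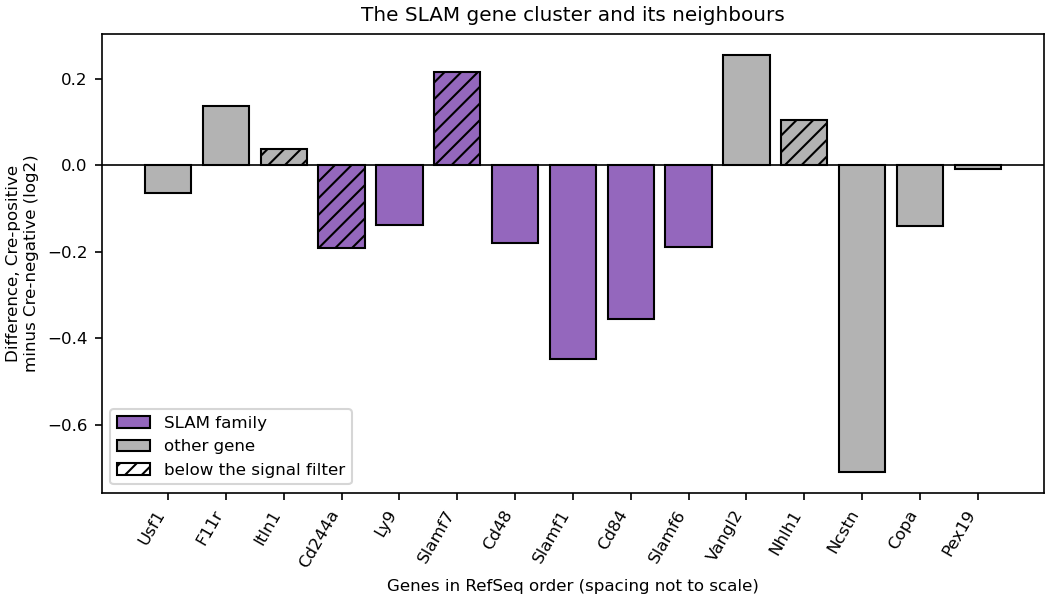
Difference in log2 signal, Cre-positive minus Cre-negative (vertical axis), of the brightest probe set of each gene of the SLAM cluster (purple) and of flanking genes (grey) in RefSeq order, with hatching for genes below the signal filter. Ly9, Cd48, Slamf1, Cd84 and Slamf6 lie below 0, and among the flanking genes the values run from -0.71 for Ncstn to 0.26 for Vangl2.

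Sh2d1a encodes SAP, the adaptor that links SLAM receptors to Fyn. Its single probe set (1449393_at) read 10.58 and 10.64 in the Cre-positive samples, against 11.20 and 10.93 in the Cre-negative samples. The groups did not overlap. The difference was -0.46 ± 0.14 (SE, n = 2 per group), a signal 0.729 times that of the Cre-negative mice, with an interval of -0.80 to -0.11 (limma adjusted p = 0.156). Sh2d1a lies on the X chromosome, and Xist, the transcript of the inactive X, read 12.75 in Cre-negative sample 2 and 4.73 to 5.37 in the other 3 samples. By this pattern Cre-negative sample 2 was female and the other 3 male, so sex was not balanced between the groups for any gene. The part of sex in the difference of Sh2d1a, or of any other gene, was not tested. Without Cre-negative sample 2 the Sh2d1a difference was -0.59, and without Cre-negative sample 1 it was -0.32.

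Zbtb16 encodes PLZF, which is made by NKT cells and not by most other thymocytes. Its brightest probe set (1427638_at) read 5.25 and 5.12 in the Cre-positive samples and 5.22 and 5.40 in the Cre-negative samples, just above the signal filter, and the groups overlapped. The difference of -0.13 ± 0.13 (SE, n = 2 per group) had an interval of -0.45 to 0.19 (limma adjusted p = 0.638). The other sets lay below the filter in both groups, at 3.60 and 3.71 in the Cre-positive samples against 3.83 and 3.84 in the Cre-negative samples (1439163_at), and at 2.85 and 2.79 against 2.85 and 2.81 (1419874_x_at).

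The genes that work with these 7 were described from lists of the pathway. Below SAP, 0 of 9 signalling genes passed in limma, where 1.37% of all genes did, and 1 had an unadjusted p under 0.05, where 20.6% did. Their median difference was 0.03, and it was -0.10 with arrays centred on the median of the tested genes. Malt1, a scaffold of nuclear factor kappa B activation, read 8.18 and 7.83 in the Cre-positive samples and 8.64 and 8.62 in the Cre-negative samples (-0.63 ± 0.15, limma adjusted p = 0.114). Ptpn6, a phosphatase that binds SLAM receptors, differed by 0.24, and the adaptor gene Fyb by -0.20. Fyn, singled out for its place next to SAP after its values were seen, overlapped in its brighter probe set, at 10.43 and 10.06 in the Cre-positive samples and 10.00 and 10.26 in the Cre-negative samples. Its dimmer set did not, at 9.37 and 9.26 in the Cre-positive samples and 8.97 and 9.08 in the Cre-negative samples (0.29 ± 0.12, limma adjusted p = 0.317 over probe sets).

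The assembly and loading of CD1d gave no call either: 0 of 20 genes passed in limma, where 1.37% of all genes did, with 6 higher and 2 lower at an unadjusted p under 0.05, where 14.3% and 6.29% of all genes were. Their median difference was 0.12, and -0.01 after that centring. B2m, the light chain that pairs with CD1d and with classical class I molecules, read 11.84 and 12.24 in the Cre-positive samples, against 11.06 and 11.05 in the Cre-negative samples. It was thus high where Cd1d1 was low, with a difference of 0.98 ± 0.16 (SE, n = 2 per group, limma adjusted p = 0.0579). Ap3b1, a subunit of the adaptor that sends CD1d to lysosomes, differed by 0.61 ± 0.13 (limma adjusted p = 0.0913). Ctsl, a lysosomal protease that CD1d presentation needs in mouse thymocytes, read 10.96 and 11.05 in the Cre-positive samples and 11.68 and 11.41 in the Cre-negative samples (-0.54 ± 0.14, limma adjusted p = 0.122).

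Among 20 regulators of NKT development 2 rose (1.11% of all genes did), none fell and 18 missed the threshold in limma, with a list median of -0.05 (-0.18 after that centring). Id2, an inhibitor of E proteins, read 7.21 and 7.80 in the Cre-positive samples, against 5.52 and 5.26 in the Cre-negative samples. The difference was 2.12 ± 0.22 (limma adjusted p = 0.0248). With only probe sets ending in plain _at, Id2 differed by 0.24 (limma adjusted p = 0.423). With the mean of all its sets it differed by 0.89 (limma adjusted p = 0.0507). Myc, which NKT precursors need to expand, read 7.97 and 7.62 in the Cre-positive samples and 6.09 and 6.52 in the Cre-negative samples (1.49 ± 0.20, limma adjusted p = 0.0414). Lef1, which supports NKT expansion, differed by 0.66 ± 0.12 (limma adjusted p = 0.0692). Outside the rule for named genes, Egr2, the factor that acts on Zbtb16 after receptor signalling, overlapped at 9.66 and 9.14 in the Cre-positive samples and 9.60 and 9.40 in the Cre-negative samples. Myb, whose loss in mice lowers CD1d, Slamf6 and SAP, read 13.11 and 13.15 in the Cre-positive samples and 13.52 and 13.29 in the Cre-negative samples (-0.28 ± 0.13, limma adjusted p = 0.304). Its other 2 probe sets were also lower without overlap, with differences of -0.42 ± 0.17 and -0.48 ± 0.18 (limma adjusted p = 0.315 and 0.284 over probe sets). Of all named probe sets 19.4% were lower without overlap, and the Myb sets read the same gene, so they are not independent. The part of Myb in the lower signals of the axis genes was not tested.

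Of the 15 kept effector and identity genes of NKT cells, 4 rose (1.11% of all genes did), none fell (0.266% did) and 11 missed the threshold in limma, with a median of 0.28 (0.15 after that centring). At an unadjusted p under 0.05, 7 were higher and 1 was lower, where 14.3% and 6.29% of all genes were. Outside the rule for named genes, 2 were lower without overlap (18.7% of all genes were). These were Cd44 (-0.61, limma adjusted p = 0.0981) and Icos (-0.59, limma adjusted p = 0.315). Plac8 read 7.52 and 8.40 in the Cre-positive samples, against 5.82 and 5.51 in the Cre-negative samples (2.29 ± 0.30, limma adjusted p = 0.0412). Gzma, a granzyme of cytotoxic cells, rose by 1.43 (limma adjusted p = 0.0408), and Il7r, the interleukin receptor chain that mature thymocytes regain, by 1.12 (adjusted p = 0.0271). Ccr6, a chemokine receptor gene, rose by 0.85 (limma adjusted p = 0.0485). These genes are also expressed by cells other than NKT cells, and Gzma and Il7r stand on the lists of natural killer and mature T cell markers too. The genes that mark NKT and natural killer cells most closely, among them Tbx21, Klrd1, Klrk1, Cxcr6, Il4 and Ifng, lay below the filter, as did Zbtb16 in 2 of its 3 probe sets. At these low signals Klrd1 read 3.75 and 3.84 in the Cre-positive samples and 2.97 and 3.22 in the Cre-negative samples (0.70). Tbx21 read 4.47 and 4.75 in the Cre-positive samples and 4.01 and 4.20 in the Cre-negative samples (0.50). Klrk1, Cxcr6, Il4 and Ifng differed by 0.08, -0.15, -0.02 and 0.12. Gzma, Plac8, Ccr6 and Myc no longer passed with arrays centred on the median of the tested genes, with adjusted p-values of 0.0506 to 0.0629, and none of the 6 genes named as rising in these lists passed when either Cre-negative array was left out. Without Cre-positive sample 1 Id2 and Plac8 still passed, and without Cre-positive sample 2 Id2, Plac8 and Gzma did.

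**Figure D5:**
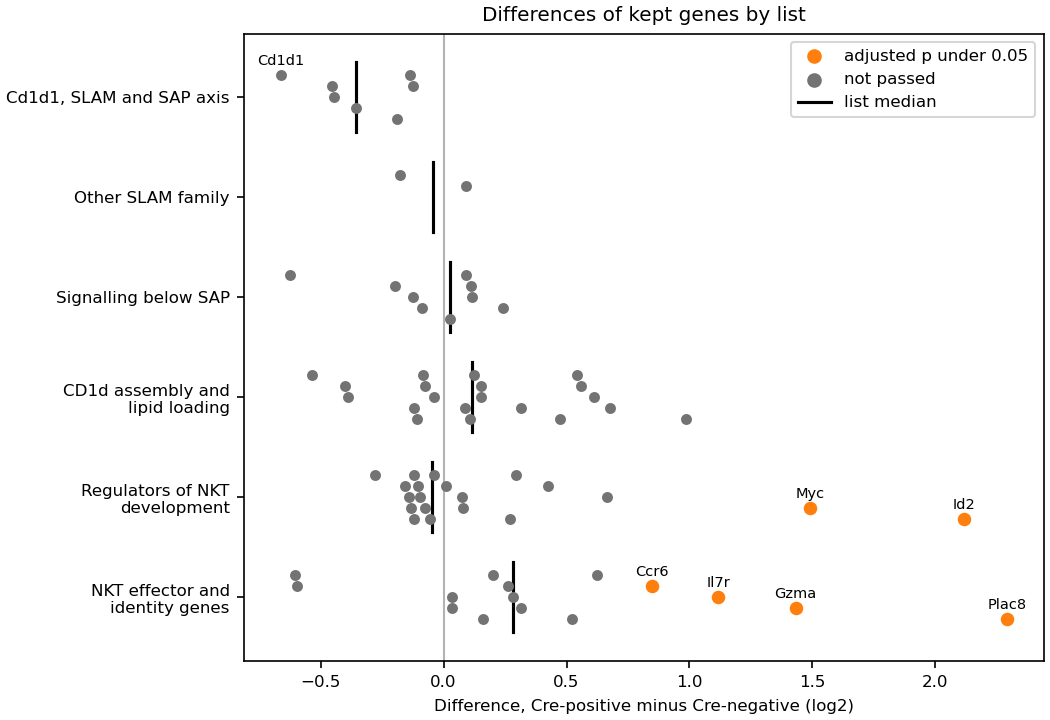
Difference in log2 signal, Cre-positive minus Cre-negative (horizontal axis), for the kept genes of each list, with a point per gene (orange, adjusted p under 0.05; grey, not passed) and a bar at the list median. All 7 points of the top row lie below 0 with a median of -0.36, and the 6 orange points in the lower lists lie between 0.85 and 2.29.

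To place the 5 genes whose arrays were separate among all others, profiles over the 4 arrays were centred on each gene's mean and compared by Euclidean distance. The nearest of 11040 other named genes to Cd1d1 were Lyrm7, Supt20 and Cd44, at distances of 0.07 to 0.08. Slamf1 lay nearest to Frrs1, Slc25a37 and Dmtf1 (0.03 to 0.05), and Sh2d1a to Entr1, Fam122a and Zfp90 (0.02 to 0.03). For Slamf6 the nearest were Gmeb2, Helz and Chd2 (0.02), and for Cd84 they were Rab27a, Trp53inp2 and Zfp950 (0.04). Of the 11040 genes, 57 lay within a distance of 0.2 of Cd1d1, 273 of Sh2d1a and 1188 of Slamf6. Profiles near that of Slamf6, whose difference was small (-0.19), were thus common over 4 arrays, and those near that of Cd1d1 were fewer.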

How the data were processed

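The authors deposited log2 signals made with RMA, per the submitters' processing notes, for 45037 probe sets on 4 arrays. The base of the logarithm is inferred from the range, 2.18 to 14.4. No genome build or array date accompanies the values, and batches could not be examined. Gene names came from the platform annotation: 34945 probe sets had 1 symbol, 932 several and 9160 none, and 34741 were matched to RefSeq by Entrez identifier. The comparison used limma 3.58.1 (lmFit, eBayes) in R 4.3.3 on 11639 of 18193 genes, with 2 degrees of freedom left for the residuals and 3.59 from the variance prior, and was tested on simulated data. Pearson's r over probe sets was 0.984 to 0.994 between arrays.

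The genes, lists and tests were chosen with earlier results of these data known. Named genes were the 7 genes, Ikzf1, called list genes, up to 3 list genes with the smallest p, and the 3 nearest profiles, passing over predicted genes. The lists covered other SLAM genes, signalling below SAP, CD1d loading, NKT regulators, NKT effector genes and cell type markers. Some listed genes were not analysed here. The mature single positive markers had a median difference of 0.37 (Il7r rose, of 4 kept). For the natural killer markers it was 0.55, the midpoint of 2 kept genes that went opposite ways. Gzma rose by 1.43, and Prf1 differed by -0.32 and did not pass in limma. For the progenitor markers it was -0.50 (0 of 2 passed in limma, and Cd44 at -0.61 had an unadjusted p under 0.05). Alternatives changed the filter, which probe set stood for a gene, the variance prior, the scaling and the weights of arrays, blocked on sample number, or dropped 1 array. Figures were drawn with matplotlib 3.10.9.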

Additional observations from a re-analysis of the deposited data

How the results depend on the processing

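Differences of the 7 genes kept their sign under all alternatives in which a gene could be tested, except that Ly9, which ran from -0.45 to 0.18 with 1 array left out, turned to 0.18 without Cre-negative sample 1. Zbtb16 gave no value with the filter at the 60th percentile or with the mean of all probe sets, since its mean then lay below the filter. The number of genes called, 160 in the main comparison, was 90 with the filter at the 60th percentile. It was 104 with only probe sets ending in plain _at and 245 with a robust variance prior. Dropping Cre-positive sample 1 left 43 and dropping Cre-positive sample 2 left 99, while dropping Cre-negative sample 1 left 14 and dropping Cre-negative sample 2 left 3. The number of probe sets called, 240 in the main comparison, was 509 with a robust prior and between 0 and 41 with 1 array left out. Centring on the median of the tested genes, an alternative added after the data were seen, lowered every difference by 0.13, called 571 probe sets and 123 genes, and put the share of called genes that were higher at 61.0%, against 80.6% in the main comparison. Of the 15 probe sets of the axis, 1 was then called with a robust prior (Cd84), and 2 with that centring (Cd84 at -1.24 and Slamf6 at -0.93). With the sample number as a replicate block 821 genes and 1221 probe sets were called, among them 1 of the 7 genes (Cd1d1, -0.66, limma adjusted p = 0.0497) and 2 of the 15 probe sets, from Cd84 and Slamf6. Nothing in the labels says that the numbers pair mice. Deviations of same-numbered arrays correlated at 0.18 over genes, and whether the mice were paired is not known. For Slamf6 the difference was -0.80 when only probe sets ending in plain _at were used, and for Cd84 it was -0.73 with the mean of both sets. With 1 array left out the Cd1d1 difference ran from -0.79 to -0.53. The cause of these changes was not tested.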
